A study of Mus musculus with 47 samples.

Results

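Potassium channel genes were followed in the brains of 3xTg mice fed diets low in a single branched-chain amino acid. The members are the genes whose symbol begins with Kcn in either of the authors' tables of differential expression, with Kcnj13 left out, matched by Ensembl identifier to the count tables. There are 85 such genes among the 55416 genes counted, of which 81 code for proteins and 4 are antisense RNAs (Kcnd3os, Kcnmb4os1, Kcnmb4os2 and Kcnq1ot1). They fall into 21 subfamilies by the letters after Kcn, the largest being Kcnj with 12 genes, Kcnk with 11 and Kcnh with 8. The rule used no measured value of these genes beyond their presence in those tables, and all 85 passed the filter on low counts in both sexes.

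Potassium channels let potassium ions leave or enter a cell and so set its resting potential and the shape and rate of its action potentials. Voltage-gated (Kv) channels are built from 4 pore subunits of the same or related subfamilies, calcium-activated and sodium-activated channels open on ion entry, inward rectifiers (Kir) and tandem-pore (K2P) channels hold the resting potential, and auxiliary subunits set where the channels sit and how they gate. Each brain region uses its own set, with Kv3 channels known for fast-spiking and cerebellar neurons and Kv7 channels for the M-current that restrains cortical and hippocampal firing.

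The mice carry mutant human APP and tau transgenes under the Thy1 promoter, which drives expression in neurons, together with a mutant presenilin, and all groups including Control share these alleles. Males and females were placed at 6 months of age on an amino acid-defined Control diet or on a diet low in isoleucine (called IleR), in leucine (called LeuR) or in valine (called ValR), and brain RNA was sequenced after 9 months. The 37 libraries analysed comprise males on Control (n = 4), IleR (n = 3), LeuR (n = 3) and ValR (n = 4), and females on Control (n = 6), IleR (n = 5), LeuR (n = 6) and ValR (n = 6). The other 10 male libraries in the labels were not analysed here. By the study's methods, libraries that stood out in a principal component analysis were left out of its tests, and whether these males are the ones meant is not given in the sources used here. The total count per library ranged from 12682687 to 25722333 in males and from 10672599 to 21370973 in females. Levels are given as normalized CPM (a count scaled to the library total), each library is named by its diet and number, and a change was called at an adjusted p-value under 0.05 in edgeR's quasi-likelihood fits, with Benjamini-Hochberg adjustment across every gene tested. The label for RNA extraction names liver, but the summed level of 8 liver genes was at most 15.2 CPM in any library against at least 4300 CPM for 9 neuronal genes.

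The libraries differed in the RNA of genes that mark brain regions, and in males this differed between Control and the restricted diets. A hindbrain score was taken as the mean log2 CPM of 24 genes of cerebellum, brainstem or spinal cord less the mean of 13 forebrain genes, none of them a potassium channel gene. In males the score lay between -7.29 and -4.35 in the 4 Control libraries and between -2.96 and 4.81 in the 10 restricted libraries, a difference of 8.92 log2 units with no overlap (two-sided exact permutation test, p = 0.000999, the smallest that 1001 arrangements allow). In females it lay between -7.32 and -0.08 in Control and between -6.97 and 3.79 on the restricted diets (difference 0.53, two-sided exact permutation test over 100947 arrangements, p = 0.724). Summed cerebellar genes ran from 41.9 to 119 CPM in male Control and from 265 to 4960 CPM in the restricted males. In bulk tissue, fewer cells of a type and less RNA per cell cannot be told apart, and in males the diet and the score cannot be told apart either, so each male result stands beside this difference.

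The promoters of 4 genes are shown, a pair that fell and a pair that rose in the restricted males, because within each direction they differ in type; they were chosen after the values were seen. RefSeq promoter windows (build GRCm38.p6) were matched by symbol to 60 of the 85 members, and the 250 bases before the annotated start are printed 5′ to 3′ on the gene's strand. Capitals mark the GC box GGGCGG on either strand, and the motif TATAAA was searched in the same way. Kcnj4 (chr15:79505242-79505491, minus strand) and Kcnf1 (chr12:17176889-17177138, minus strand) fell for at least 1 diet in males, and Kcnc1 (chr7:46396218-46396467, plus strand) and Kcng4 (chr8:119635681-119635930, minus strand) rose.
Kcnj4: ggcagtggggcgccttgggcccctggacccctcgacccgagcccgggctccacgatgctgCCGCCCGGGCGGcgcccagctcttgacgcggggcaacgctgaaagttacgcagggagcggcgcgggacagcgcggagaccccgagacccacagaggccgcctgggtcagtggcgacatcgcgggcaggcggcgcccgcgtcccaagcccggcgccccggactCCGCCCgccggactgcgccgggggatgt
Kcnf1: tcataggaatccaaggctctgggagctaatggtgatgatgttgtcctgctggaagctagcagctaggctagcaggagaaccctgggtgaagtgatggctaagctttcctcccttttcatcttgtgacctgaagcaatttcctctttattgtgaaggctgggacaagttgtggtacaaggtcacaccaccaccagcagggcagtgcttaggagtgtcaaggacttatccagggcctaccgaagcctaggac
Kcnc1: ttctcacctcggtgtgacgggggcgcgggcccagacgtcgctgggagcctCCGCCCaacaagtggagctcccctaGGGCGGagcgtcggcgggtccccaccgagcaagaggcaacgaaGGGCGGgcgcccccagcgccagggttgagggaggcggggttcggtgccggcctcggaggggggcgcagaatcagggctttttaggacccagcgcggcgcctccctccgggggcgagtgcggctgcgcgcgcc
Kcng4: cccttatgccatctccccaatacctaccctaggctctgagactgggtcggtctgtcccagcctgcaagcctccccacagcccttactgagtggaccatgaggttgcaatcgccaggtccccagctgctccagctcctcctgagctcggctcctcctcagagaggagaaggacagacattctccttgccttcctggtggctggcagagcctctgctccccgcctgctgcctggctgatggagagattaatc

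By this choice, each direction held a promoter rich in CG pairs and a poor one. The Kcnj4 window held 35 CG pairs and 3 GC boxes and that of Kcnc1 30 CG pairs and 3 GC boxes, whereas Kcnf1 held 1 CG pair and Kcng4 4, with no GC box in either and no TATAAA in any of the 4. Of the 84 windows of members, 39 (46.4%) held GGGCGG, against 32.7% of the 32851 windows in the table, and 2 (2.38%) held TATAAA, against 12.4%. GGGCGG was present in 50.0% of the 30 windows of members that fell for any male diet, in 43.8% of the 16 windows of those that rose and in 44.7% of the 38 windows of those called for none. A match is a description of these letters and not a binding site.

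Per kilobase of exon, the levels of members in male Control spanned more than 3 orders of magnitude. Kcnab2, a cytoplasmic beta subunit of Kv1 channels, was highest at 85.1 CPM per kb, followed by Kcnip2 at 49.8, the G protein-gated Kcnj9 at 42.7, the glial Kir gene Kcnj10 at 41.0 and Kcnj4 at 40.3. The lowest was the pore gene Kcnq1 at 0.0661 CPM per kb, and Kcnk15 and Kcnn4 lay at 0.101. In female Control, Kcnab2 again led at 66.2 CPM per kb, with the tandem-pore gene Kcnk1 at 44.4 and Kcnj4 at 41.9. Levels of Kcnq1 and Kcnk15 included libraries without a count in both sexes, and so did Kcne2 in females.

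More potassium channel genes fell than rose on each restricted diet in males, and the falls reached further than the rises. For IleR, 25 of 85 members fell and 8 rose, where 8.68% and 6.63% of the 22197 genes tested did so. For LeuR, 23 fell and 5 rose (6.33% and 3.81% of all genes), and for ValR, 27 fell and 13 rose (12.4% and 11.1% of all genes). Members were better expressed than most genes, so the shares were also taken at a mean of at least 2 CPM: of the 72 members there, 34.7% fell for IleR, 31.9% for LeuR and 37.5% for ValR, against 11.9%, 9.05% and 16.2% of 14184 genes. The shares that rose, 11.1%, 6.94% and 18.1% of those 72, were near the 8.66%, 5.02% and 14.6% of all genes at that level. The median log2 fold change over the 85 members was -0.15 (IleR), -0.23 (LeuR) and -0.13 (ValR), against 0.04, 0.05 and 0.03 over all genes. The summed level of 9 pan-neuronal markers was 5440 to 7300 CPM in male Control and 4370 to 5310 CPM in the restricted males, with no overlap. Of these 9, the synaptic vesicle gene Syt1 fell for every diet (-1.54, -1.37 and -1.83), Syp fell for IleR and ValR and Map2 for ValR, while Stmn2 rose for every diet (0.51, 0.42 and 0.73). Of 8 microglial markers, 2 fell for IleR, 0 for LeuR and 4 for ValR. The part of these cells in the falls was not tested.

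The 3 diets were compared with the same Control libraries, and 45 members were called for at least 1 of them (27.0% of all genes). The 18 genes that fell for every diet (4.63% of all genes) included Kcnc2, Kcnh3, Kcnh4, Kcnh5, Kcnh7, Kcnip2, Kcnj4, Kcnj6, Kcnj9, Kcnk4, Kcnq3, Kcnq5, Kcns1, Kcns2, Kcnt2 and Kcnv1. The 2 that rose for every diet were Kcne5 and Kcnh2 (2.10% of all genes), no member was called in opposite directions by 2 diets (0% of all genes), and 40 were called for none. Leaving out 1 library at a time, the members called ran from 21 (without IleR 17) to 40 for IleR and from 34 to 44 for ValR. For LeuR they ran from 6 to 33, with 6 called without LeuR 19, 13 without Control 3 and 14 without Control 1, and none was called when Control and LeuR were fitted without the other diets.

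**Figure D1:**
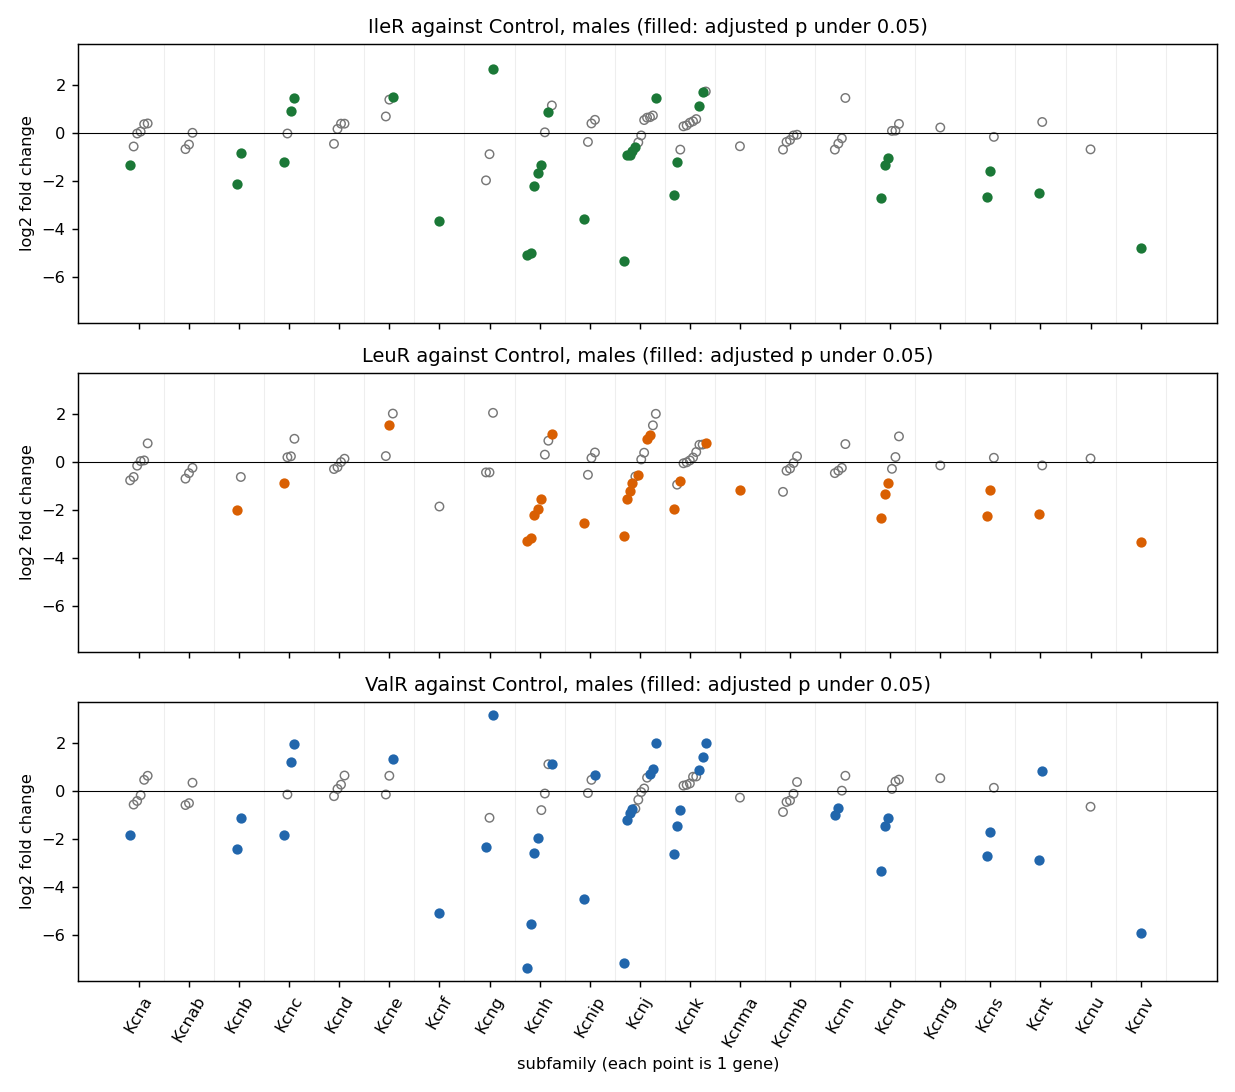
Log2 fold change of each potassium channel gene against Control in males, by subfamily, with 1 panel a diet; filled points have an adjusted p-value under 0.05 (edgeR) and open points do not. The Kcnh and Kcnj subfamilies hold the deepest falls for ValR, -7.36 and -7.15, and Kcng holds the largest rise, 3.19.

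Among the 15 Kv pore genes of the Kcna, Kcnb, Kcnc and Kcnd subfamilies, 4 fell and 2 rose for both IleR (8.68% and 6.63% of all genes) and ValR (12.4% and 11.1%), and 2 fell for LeuR (6.33%). Kcnb2, a delayed rectifier of neurons, fell for IleR (-0.82, adjusted p = 0.0388) and ValR (-1.11, adjusted p = 0.00334), and Kcna4, an A-type Kv1 subunit, fell for the same diets (-1.32 and -1.83).

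The Kv3 genes, whose fast channels allow high firing rates, went both ways. Kcnc1 was at 267, 288, 318 and 316 CPM in Control libraries 1, 3, 4 and 5, at 421, 557 and 715 CPM in IleR 13, 14 and 17, at 347, 446 and 242 CPM in LeuR 19, 20 and 21, and at 621, 514, 794 and 830 CPM in ValR 7, 9, 10 and 12. It rose for IleR (log2 fold change 0.93 ± 0.22 (SE), edgeR adjusted p = 0.0127) and ValR (1.21 ± 0.21, adjusted p = 0.00107), with no overlap with Control, and LeuR 21 lay below the Control range. Kcnc2, the Kv3 gene of many forebrain interneurons, fell for all 3 diets (-1.19, -0.87 and -1.82), and Kcnc4 was called for none.

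The Kv1 genes of axons and the Kv4 genes of dendrites were mostly not called. Kcna1 was at 140, 105, 91.4 and 148 CPM in Control, at 161, 162 and 161 CPM in IleR, at 185, 167 and 24.7 CPM in LeuR and at 177, 211, 187 and 186 CPM in ValR. All restricted males except LeuR 21 lay above Control, yet the largest log2 fold change was 0.65 ± 0.40 for ValR (adjusted p = 0.279). Kcna2 gave 0.38, -0.14 and 0.48, and Kcnd2, the main somatodendritic A-type pore, gave 0.40, -0.28 and 0.66, with adjusted p-values of at least 0.0782 for both genes. Kcnd3 lay between -0.20 and 0.18 for the 3 diets.

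Silent Kv subunits do not form channels alone and modify Kv2 channels, and 5 of the 8 fell for ValR, 4 for IleR and 3 for LeuR (12.4%, 8.68% and 6.33% of all genes). Kcnv1 was at 93.7, 82.3, 21.8 and 68.4 CPM in Control 1, 3, 4 and 5, at 5.40, 1.28 and 0.829 CPM in IleR 13, 14 and 17, at 1.48, 6.69 and 12.3 CPM in LeuR 19, 20 and 21, and at 1.15, 1.89, 0.885 and 0.510 CPM in ValR 7, 9, 10 and 12. No restricted male reached the lowest Control, and the log2 fold changes were -4.77 ± 0.80, -3.30 ± 0.73 and -5.91 ± 0.78 (adjusted p = 0.00207, 0.0157 and 0.000233). Kcnf1 was at 116, 104, 46.0 and 76.7 CPM in Control, at 11.9, 5.65 and 2.90 CPM in IleR, at 5.82, 22.7 and 43.5 CPM in LeuR and at 3.09, 5.12, 0.885 and 1.15 CPM in ValR. It was below the Control range in every restricted male, by a narrow margin in LeuR 21, and was called for IleR (-3.66 ± 0.72) and ValR (-5.08 ± 0.71) but not for LeuR (-1.84 ± 0.65, adjusted p = 0.0869). Kcns1 (-2.64, -2.24 and -2.68) and Kcns2 (-1.59, -1.16 and -1.71) fell for IleR, LeuR and ValR. Kcng1 fell for ValR (-2.32 ± 0.62, adjusted p = 0.0161), with IleR at -1.96 (adjusted p = 0.0667) and LeuR at -0.42.

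Kcng4 was the silent subunit that moved the other way, and its log2 fold changes for IleR and ValR were the highest of all 85 members. It was at 6.47, 7.16, 22.9 and 14.8 CPM in Control 1, 3, 4 and 5, at 69.4, 80.4 and 98.5 CPM in IleR, at 88.1, 69.7 and 2.60 CPM in LeuR 19, 20 and 21, and at 91.9, 89.3, 147 and 142 CPM in ValR. All restricted males but LeuR 21 lay above the Controls, and LeuR 21 lay below them. The log2 fold change reached 2.69 ± 0.73 (IleR), 2.06 ± 0.72 (LeuR) and 3.19 ± 0.71 (ValR) (adjusted p = 0.0241, 0.0842 and 0.0056). The IleR call was lost with limma voom and without Control 1, 3 or 5 or IleR 14 or 17.

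Kcnq3, a Kv7 subunit of the M-current, fell for every diet, with log2 fold changes of -1.34, -1.31 and -1.45, and so did the Kv7 gene Kcnq5 (-2.71, -2.31 and -3.32). Kcnq5 was at 45.2 CPM in Control 4 against 123 to 137 CPM in the other Controls, and at 8.02 to 34.5 CPM in the restricted males. All restricted males lay below the Controls, and Kcnq1 was called for none.

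The Kcnh subfamily (Eag, Erg and Elk channels) held the deepest fall and a rise. Kcnh3, an Elk channel of forebrain neurons, was at 191, 200, 50.9 and 162 CPM in Control 1, 3, 4 and 5, at 12.0, 1.09 and 1.13 CPM in IleR 13, 14 and 17, at 0.716, 22.4 and 23.9 CPM in LeuR 19, 20 and 21, and at 0.720, 0.944, 0.826 and 1.15 CPM in ValR. The restricted males spread over a wide range but all lay below Control 4. Its log2 fold change was -5.05 ± 1.05 on IleR, -3.28 ± 0.94 on LeuR and -7.36 ± 1.09 on ValR (adjusted p = 0.00624, 0.0420 and 0.000432). The Elk gene Kcnh4 (-4.98, -3.15 and -5.53), the Eag gene Kcnh5 (-1.67, -1.93 and -1.94) and the Erg gene Kcnh7 (-2.21, -2.18 and -2.56) also fell for every diet. The Eag gene Kcnh1 fell for IleR (-1.30) and LeuR (-1.53) and was not called for ValR (-0.78).

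Kcnh2, the Erg channel best known from the repolarization of the heart, rose for every diet. It was at 36.7, 37.2, 64.0 and 46.7 CPM in Control, at 90.4, 95.3 and 69.9 CPM in IleR, at 143, 88.7 and 78.8 CPM in LeuR and at 104, 149, 85.7 and 70.5 CPM in ValR. All 10 restricted males lay above Control 4, the highest Control. The log2 fold changes were 0.88 ± 0.27, 1.17 ± 0.27 and 1.15 ± 0.26 (adjusted p = 0.0429, 0.0192 and 0.00577).

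**Figure D2:**
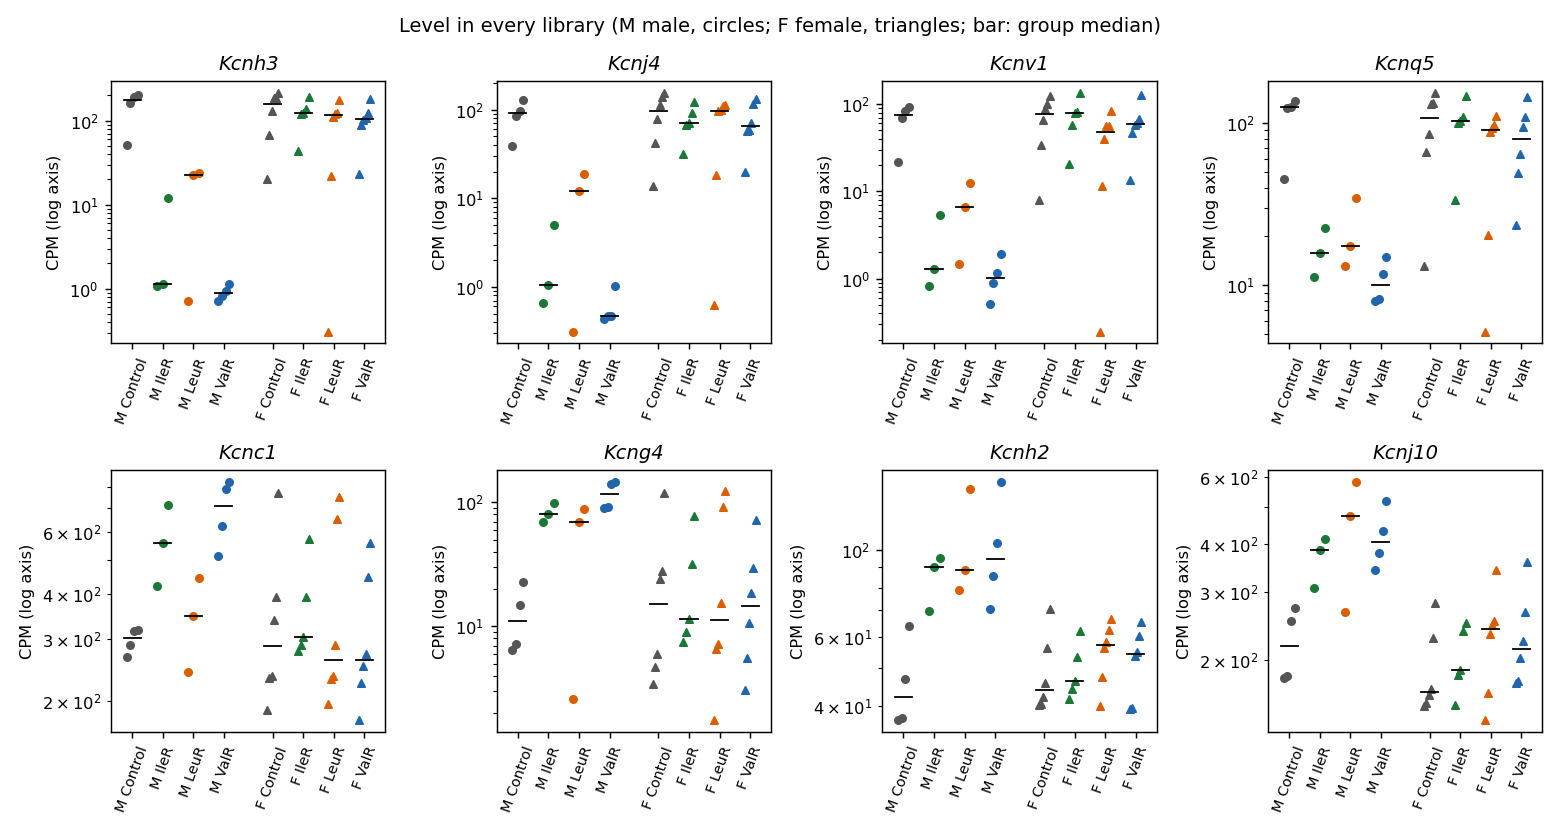
Level in CPM (log axis) of 8 potassium channel genes in every library, with males as circles, females as triangles and the group median as a bar. In males Kcnh3, Kcnj4, Kcnv1 and Kcnq5 are lower and Kcnh2 is higher in every restricted library than in Control, LeuR 21 lies below Control for Kcnc1 and Kcng4, and in females the groups overlap for all 8 genes.

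Of the 8 calcium-activated and sodium-activated pore genes, 1 fell for IleR (8.68% of all genes), 2 fell for LeuR (6.33%), and 3 fell and 1 rose for ValR (12.4% and 11.1%). Kcnt2, a sodium-activated channel, fell for all 3 diets (-2.47, -2.15 and -2.84), whereas its relative Kcnt1 rose for ValR (0.86 ± 0.17, adjusted p = 0.00225), with IleR at 0.47 (adjusted p = 0.0894) and LeuR at -0.13. The small-conductance genes Kcnn1 (-0.71) and Kcnn3 (-0.99) fell for ValR, and Kcnn2 (0.03) and the testis-type pore gene Kcnu1 (-0.64) were not called. Kcnma1, the large-conductance (BK) pore, was at 303, 294, 155 and 231 CPM in Control 1, 3, 4 and 5, at 153, 162 and 190 CPM in IleR, at 88.3, 133 and 114 CPM in LeuR and at 196, 131, 228 and 266 CPM in ValR. The LeuR libraries alone lay wholly below Control, and the gene fell for LeuR (-1.14 ± 0.26, adjusted p = 0.0168) and was not called for IleR (-0.54) or ValR (-0.26).

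Of the 12 inward rectifiers, 5 fell and 1 rose for IleR (8.68% and 6.63% of all genes), 5 fell and 2 rose for LeuR (6.33% and 3.81%), and 4 fell and 3 rose for ValR (12.4% and 11.1%). Kcnj4, a strong rectifier of forebrain neurons, was at 127, 96.2, 39.1 and 84.8 CPM in Control 1, 3, 4 and 5, at 4.97, 1.05 and 0.652 CPM in IleR, at 0.313, 12.1 and 18.9 CPM in LeuR 19, 20 and 21, and at 0.432, 0.472, 0.472 and 1.02 CPM in ValR. Every restricted male lay below Control, and the log2 fold changes were -5.33 ± 0.98, -3.07 ± 0.85 and -7.15 ± 1.00 (adjusted p = 0.00332, 0.0369 and 0.000312). The related strong rectifier Kcnj12 was at 9.64 to 13.9 CPM in Control, at 20.7 to 48.5 CPM in IleR, at 12.2 to 22.1 CPM in LeuR and at 24.9 to 64.0 CPM in ValR. It rose for IleR (1.45 ± 0.33) and ValR (2.01 ± 0.32), while a further strong rectifier, Kcnj2, fell for those diets (-0.72 and -1.21).

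The G protein-gated genes Kcnj6 and Kcnj9 fell for every diet, and their partner Kcnj3 for IleR (-0.58) and LeuR (-0.86). The IleR call of Kcnj6 was lost with limma voom, in the fit of only the 2 groups and in 10 of 14 fits that left out 1 library (Control 1, 3 or 5, IleR 13, 14 or 17, LeuR 21, or ValR 7, 10 or 12). Kcnj9 was at 170, 222, 132 and 208 CPM in Control, at 78.0, 90.5 and 122 CPM in IleR, at 49.8, 96.4 and 94.0 CPM in LeuR and at 107, 73.0, 124 and 132 CPM in ValR. Control 4 and ValR 12 were both at 132 CPM and the other restricted males lay below all Controls. The log2 fold changes were -0.92 ± 0.27, -1.19 ± 0.27 and -0.75 ± 0.24 (adjusted p = 0.0330, 0.0170 and 0.0393). The glial rectifier Kcnj10 was at 179, 181, 273 and 253 CPM in Control 1, 3, 4 and 5, at 413, 387 and 307 CPM in IleR, at 583, 473 and 266 CPM in LeuR 19, 20 and 21, and at 433, 519, 380 and 342 CPM in ValR. Every IleR and ValR library lay above Control, whereas LeuR 21 lay inside the Control range. It rose for LeuR (0.99 ± 0.24, adjusted p = 0.0223) and ValR (0.92 ± 0.23, adjusted p = 0.0103), with IleR at 0.74 (adjusted p = 0.0554). Its partner Kcnj16 rose for the same diets (1.13 and 0.73). Over 8 oligodendrocyte marker genes the summed level was 4730 to 9900 CPM in male Control and 6640 to 18500 CPM in the restricted males, with 0 of 8 called for any diet, and over 8 astrocyte markers it was 3570 to 4990 CPM and 2690 to 4290 CPM. Of these astrocyte genes, the water channel gene Aqp4 rose for IleR (1.36) and ValR (1.21), Gjb6 rose for ValR (0.50), the glutamate transporter gene Slc1a2 fell for every diet (-0.97, -0.95 and -1.08), and the others were not called. The part of these cells in the rise of Kcnj10 was not tested.

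Of the 11 tandem-pore genes, which carry background potassium current, 2 rose and 2 fell for IleR (6.63% and 8.68% of all genes), 1 rose and 2 fell for LeuR (3.81% and 6.33%), and 3 rose and 3 fell for ValR (11.1% and 12.4%). Kcnk3, an acid-sensitive TASK channel, was at 25.0 to 34.7 CPM in the 4 Controls, at 45.7 to 82.6 CPM in IleR, at 36.1 to 48.3 CPM in LeuR and at 50.4 to 102 CPM in ValR. None of the restricted males overlapped with Control, and the call held for IleR (1.12 ± 0.24) and ValR (1.42 ± 0.22) and not for LeuR (0.43 ± 0.24, adjusted p = 0.261). Kcnk10 rose for the same diets (1.72 and 2.02). Kcnk2 and Kcnk4 went down, Kcnk4 for all 3 diets (-2.59, -1.95 and -2.62) and Kcnk2 for IleR (-1.19) and ValR (-1.46). Kcnk6 fell for LeuR and ValR (-0.76 and -0.79), Kcnk12 rose for ValR (0.91), and Kcnk1 and Kcnk9 were called for none.

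Of the 14 auxiliary genes (with Kcnrg, a regulator of Kv channel assembly), 1 fell and 1 rose for both IleR and LeuR, and 1 fell and 2 rose for ValR, near the shares of all genes (8.68% and 6.63% for IleR, 6.33% and 3.81% for LeuR, 12.4% and 11.1% for ValR). Kcnip2, a KChIP that supports surface Kv4 channels, was at 237, 206, 56.7 and 193 CPM in Control, at 23.6, 10.6 and 10.1 CPM in IleR, at 4.25, 35.0 and 52.1 CPM in LeuR and at 9.36, 9.51, 4.54 and 7.39 CPM in ValR. It stayed below Control 4 in every restricted male and fell for each diet (-3.56 ± 0.71, -2.51 ± 0.67 and -4.50 ± 0.67). Kcne5, a single-span subunit known to inhibit Kcnq1 channels, was at 2.66, 2.84, 7.26 and 3.58 CPM in Control and at 9.56 to 13.3 CPM in the 10 restricted males. The groups did not overlap and it rose for each diet (1.53 ± 0.27, 1.55 ± 0.27 and 1.36 ± 0.26, adjusted p = 0.00273, 0.00659 and 0.00207). The KChIP gene Kcnip1 rose for ValR (0.69 ± 0.20, adjusted p = 0.0256), with 0.56 for IleR and 0.41 for LeuR not called, and Kcnip3 (-0.07) was not called. The Kv1 beta subunits Kcnab1, Kcnab2 and Kcnab3, the BK beta subunits (Kcnmb4 at -0.68, -1.23 and -0.38) and the 4 antisense RNAs were called for no diet. Kcne2, best known from the choroid plexus in the brain, varied from 0.0637 to 11.4 CPM within male Control and from 0.127 to 37.6 CPM in the restricted males, and the summed level of 8 choroid plexus markers varied from 14.8 to 3020 CPM and from 22.9 to 4890 CPM.

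Of 28 partner genes outside the family, 8 fell and 3 rose with IleR (against 8.68% and 6.63% of all genes), 7 fell and 2 rose with LeuR (6.33% and 3.81%), and 7 fell and 4 rose with ValR (12.4% and 11.1%). Dlg4, the scaffold that clusters Kv1 and Kir2 channels, fell for every diet (-1.11, -0.92 and -1.08), as did Lgi1 (-0.63, -0.59 and -0.51). The calmodulin genes Calm2 (-0.61, -0.59 and -0.49) and Calm3 (-0.52, -0.40 and -0.44), whose protein is bound by Kv7 channels, fell for every diet, whereas Ank3, the anchor of Kv7 channels at the axon initial segment, was called for none. Hcn4, a pacemaker channel, rose for every diet (1.34, 1.58 and 1.07). Of the Kv4 partners, Dpp6 rose for ValR (0.48) and Dpp10 was called for none (-0.45, -0.60 and -0.14).

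Between the restricted diets, ValR and LeuR differed for 7 members, where 2.75% of all genes did: 4 members were higher on ValR (1.73% of all genes) and 3 lower (1.03%). Kcnc1 (1.00), Kcnj12 (1.61), Kcnk3 (0.99) and Kcnt1 (0.99) were higher and Kcnc2 (-0.95), Kcnf1 (-3.24) and Kcnj4 (-4.09) lower on ValR, with adjusted p-values from 0.0481 to 0.0497 (edgeR). None of these 7 calls was kept in every fit that left out 1 male library: 0 members were called without Control 1, 3 or 5, ValR 7, 10 or 12, IleR 14 or LeuR 21, and 12 without ValR 9. DESeq2 called 21 members and limma voom 4, and their shares of all genes are not given here. ValR against IleR and IleR against LeuR gave 0 of 85 members and 0% of all genes, with 5 and 14 members at an unadjusted p-value under 0.05 (2.83% and 11.3% of all genes). DESeq2 and limma voom also called 0 members in both.

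In females no potassium channel gene was called for any diet, and 0% of the 20344 genes tested were. By edgeR, 2 members for IleR, 1 for LeuR and 1 for ValR had an unadjusted p-value under 0.05 (2.84%, 4.03% and 3.82% of all genes), and every alternative tried, DESeq2 and limma voom included, called 0. Kcnh3 ran from 20.2 to 214 CPM in the 6 female Controls (median 158) and from 0.309 to 193 CPM in the 17 restricted females (median 119). Kcnc1 ran from 189 to 770 CPM (median 287) and from 177 to 753 CPM (median 288) in the same groups. The ranges of the Control and restricted females overlapped for both genes, and the restricted females covered most of the male range. Kcnj10 had a median of 165 CPM in Control (151 to 281) and 224 CPM in the restricted females (139 to 360). Kcnh2 had one of 43.8 CPM (40.1 to 70.7) and 53.6 CPM (39.2 to 66.7), so these ranges overlapped too.

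The change with diet was not equal in the 2 sexes for 15 members for ValR, where 4.25% of all genes differed, and for 0 members for IleR and LeuR (0.0979% and 0.00445% of all genes). For IleR and LeuR, 31 and 22 members had an unadjusted p-value under 0.05 in that test (19.1% and 13.0% of all genes). DESeq2 called 18 and 3 members, and its share of all genes is not given here. For ValR the difference was negative for 14 genes (3.57% of all genes), among them Kcnc2, Kcnf1, Kcnh3, Kcnh4, Kcnh7, Kcnip2, Kcnj4, Kcnk4, Kcnq5, Kcns1, Kcnt2 and Kcnv1, and positive for 1, Kcnh2 (0.677% of all genes). In Kcnh3 the ValR change was -7.36 in males and -0.36 in females (interaction -7.01 ± 1.37, adjusted p = 0.00803), and in Kcnh2 it was 1.15 and 0.09 (interaction 1.04 ± 0.31, adjusted p = 0.0468). With the hindbrain score as a covariate 0 members were called, and 0 with limma voom. Leaving out 1 library gave 5 to 9 members without any of male Control 1, 3 or 5, male ValR 7, 10 or 12, female Control 27, 29 or 30, or female ValR 32 to 35, and 25 without female ValR 36. For IleR, 14 members were called without male Control 4, 13 without female IleR 41 and 11 without female LeuR 45, and for LeuR, 4 without male Control 4.

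The female libraries, which no male comparison used, showed how each member moved with the hindbrain score within diets. The slope of log2 CPM on the score, with diet in the model, was called for 58 members (and for 45.6% of all genes), 22 positive and 36 negative, where 21.9% and 23.7% of all genes were positive and negative. At a mean of at least 2 CPM, 46.7% of 75 members were negative and 29.3% positive, against 29.3% and 26.8% of 13964 genes. Slopes were steep upward in Kcng4 (0.55 ± 0.04 per unit of score), Kcnk10 (0.32 ± 0.02) and Kcnj12 (0.27 ± 0.02), and steep downward in Kcnh4 (-0.48 ± 0.06), Kcnv1 (-0.41 ± 0.06) and Kcnh3 (-0.41 ± 0.06). LeuR 45, with the highest female score of 3.79, had 0.309 CPM of Kcnh3 and 753 CPM of Kcnc1. Control 30, at a score of -0.08, had 20.2 and 770 CPM, and Control 25, at -7.32, had 185 and 189 CPM.

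Most members called in males had a called female slope of the same sign, and so did most of all genes called in males. All 13 members that rose for ValR in males had a positive female slope that was called, and 26 of the 27 that fell had a negative one, against 88.3% and 90.1% of all genes called for ValR. For IleR it was 8 of 8 and 23 of 25 (87.8% and 93.1% of all genes), and for LeuR 4 of 5 and 19 of 23 (62.0% and 78.7%). No member had a called slope of the opposite sign for any diet.

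**Figure D3:**
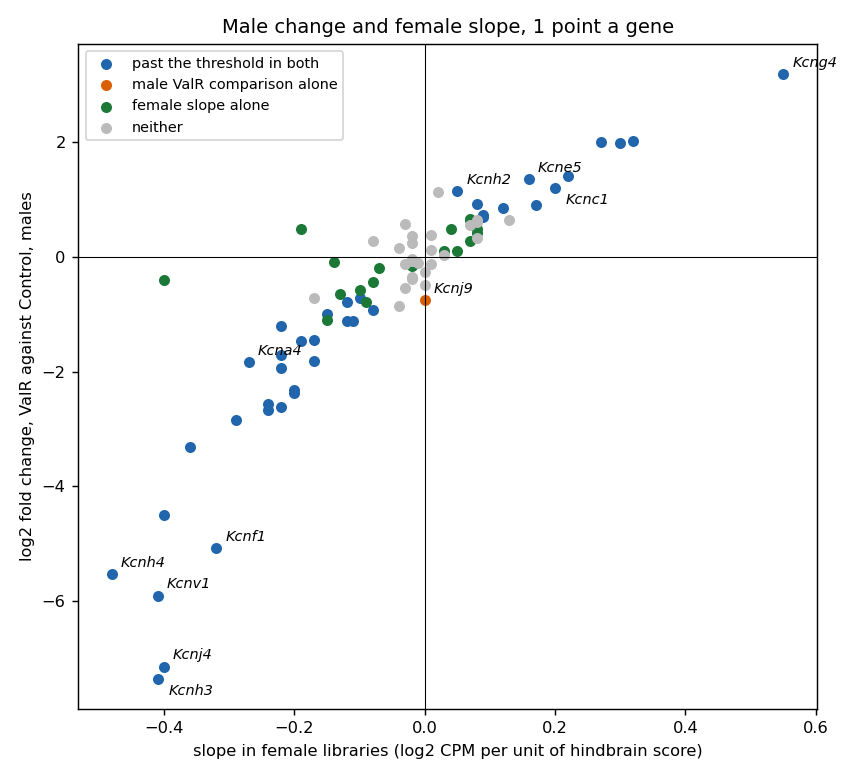
Log2 fold change for ValR against Control in males and slope of log2 CPM on the hindbrain score in females, 1 point for each of the 85 members, coloured by which of these passed the threshold. Points past both lie at the lower left (Kcnh3 at -0.41 and -7.36) and upper right (Kcng4 at 0.55 and 3.19), and Kcnj9, at a slope of 0.00, is past the male threshold alone.

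A few members were called in males without a female slope. Kcnj9 fell for all 3 diets while its slope was 0.00 ± 0.02 (adjusted p = 0.915), and Kcnj3 fell for IleR and LeuR with a slope of -0.02 ± 0.02 (adjusted p = 0.462). For LeuR the same held for Kcnj11 (-0.52, slope -0.02), Kcnma1 (-1.14, slope 0.00) and Kcnk13 (0.82, slope -0.02). In Kcnj9 the LeuR males lay at 49.8 to 96.4 CPM and the 17 restricted females at 70.4 to 202 CPM, with the sexes normalized apart. Whether the slope in males equals that in females was not tested.

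**Figure D4:**
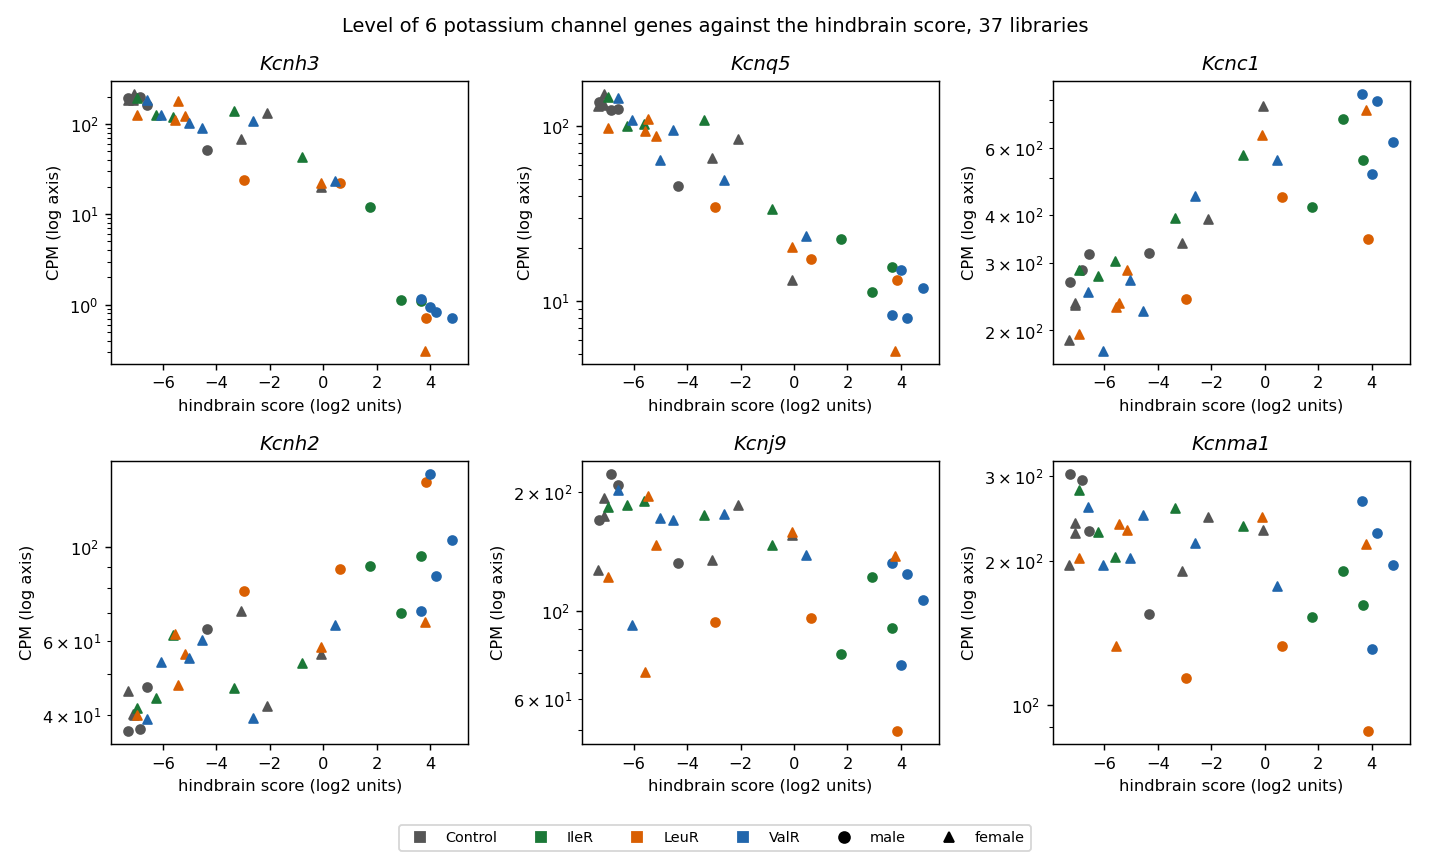
Level in CPM (log axis) of 6 potassium channel genes against the hindbrain score in all 37 libraries, coloured by diet, with males as circles and females as triangles. In females Kcnh3 and Kcnq5 fall and Kcnc1 rises along the score, from 185 to 0.309 CPM for Kcnh3 between female Control 25 and LeuR 45, and Kcnj9 and Kcnma1 have no slope that was called. Male LeuR 21, at 242 CPM of Kcnc1, lies below male Controls of lower score.

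**Figure D5:**
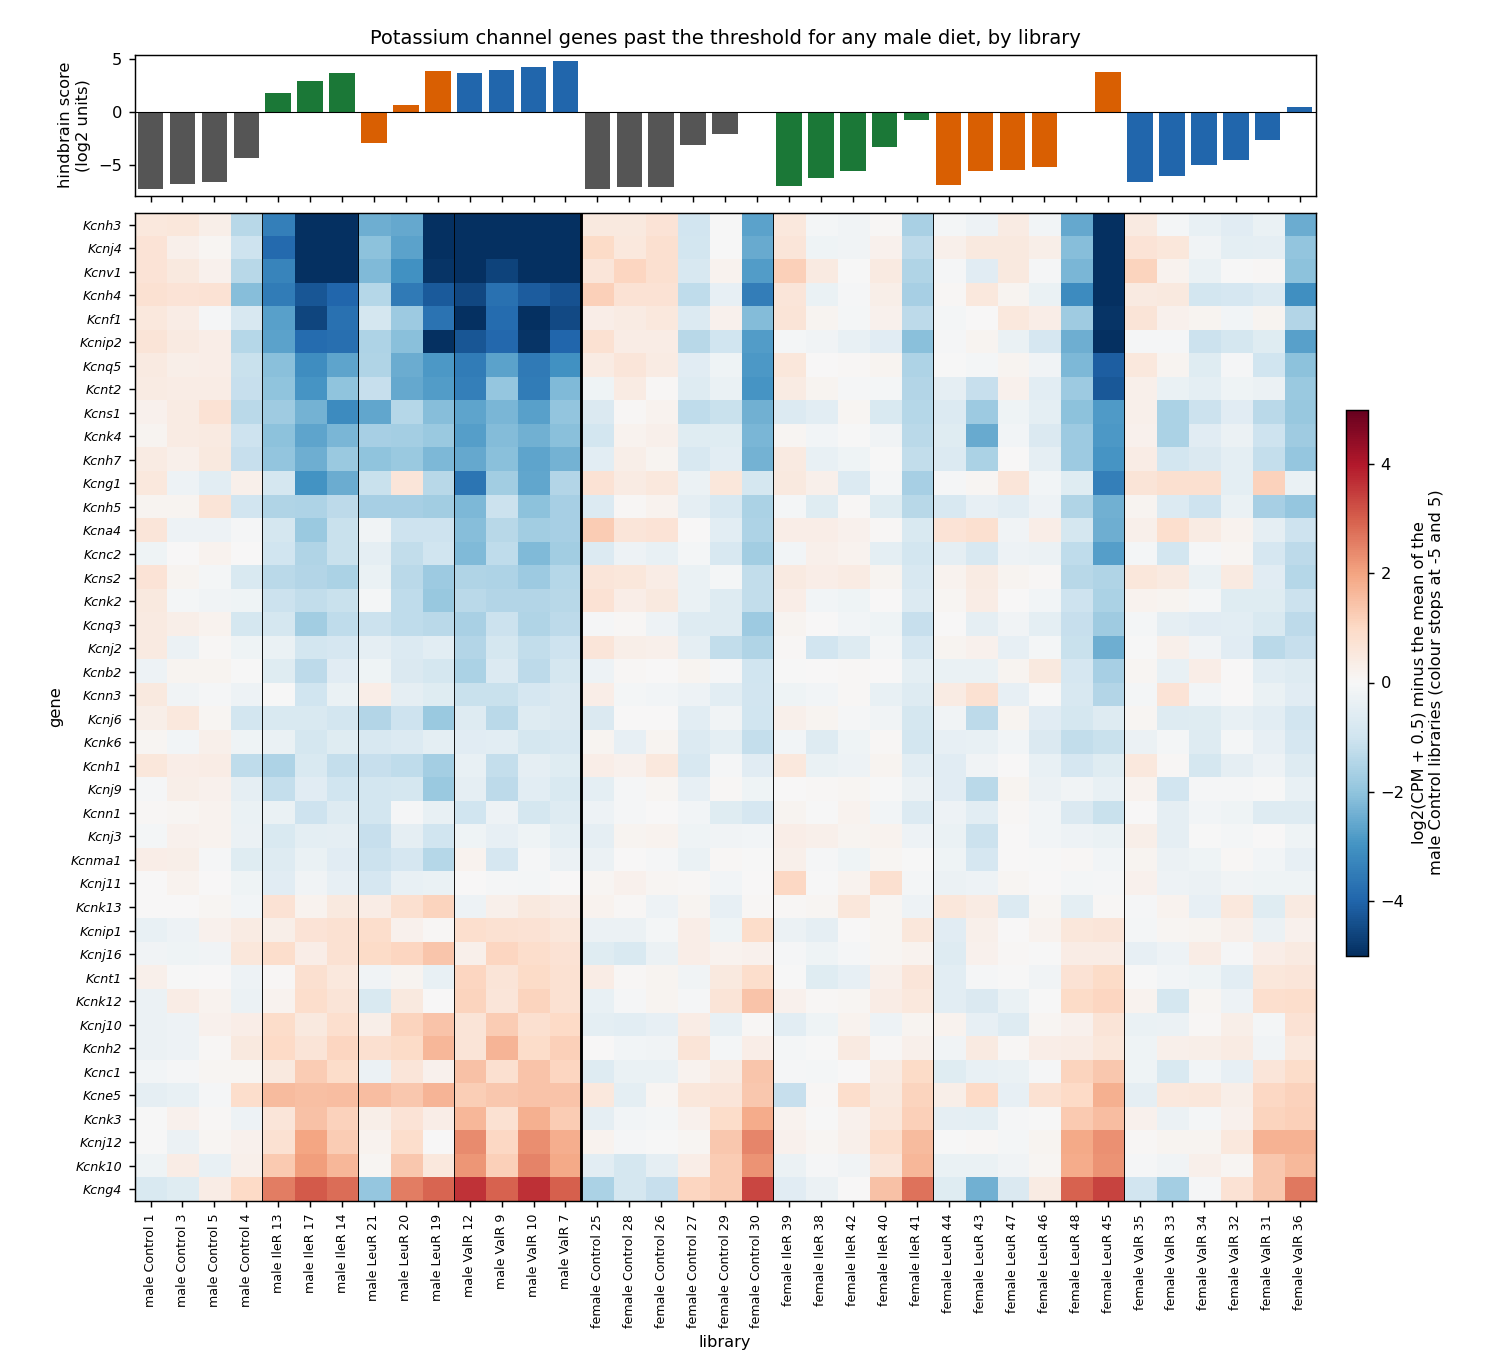
Difference in log2(CPM + 0.5) from the mean of the male Control libraries for 42 of the 45 members called for any male diet (rows, ordered by the ValR change) in 37 libraries (columns, ordered by the hindbrain score within a group), with the score as bars above. The pattern of the male restricted libraries is strong in female LeuR 45 and weaker in female Control 30, IleR 41, LeuR 48 and ValR 36, and it is weakest among restricted males in LeuR 21.

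With the hindbrain score as a covariate, 0 of 85 members were called for any male diet, with 7 members for IleR, 12 for LeuR and 7 for ValR at an unadjusted p-value under 0.05 (7.49%, 7.13% and 8.33% of all genes) and a smallest adjusted p-value of 0.518 (edgeR). Over all genes, 3, 12 and 0 were called. Because no restricted male had a score inside the Control range, this fit sets each diet effect by extrapolation, and the part of brain region in the male changes cannot be told apart from that of diet.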

How the data were processed

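Expected counts per gene, one table for each sex, were deposited by the authors. One label describes stranded mRNA libraries with polyA enrichment, whereas another and the study's methods name a stranded total RNA kit, so the share of RNAs without a polyA tail is uncertain. The labels name the build GRCm38, R 3.4.3, edgeR and limma. The aligner and the strand setting of the counting are not given in the sources used here, so antisense RNAs and their partners may share reads. The authors' tables of log2 fold changes and p-values served only for their gene symbols. Counts were rounded, a gene was tested if some diet group had no library below 1 count for it, and males and females were fitted apart, with all 4 diets in each fit, using edgeR 4.0.16 in R 4.3.3 (TMM normalization, quasi-likelihood F-test, Benjamini-Hochberg adjustment over all genes). Diet by sex interactions came from 1 fit over 37 libraries. The slope used diet and the hindbrain score as terms. Levels per length are CPM per kb of merged exons. The members, the gene lists and the tests were chosen with earlier results of these data known. Members named with values were the 5 that rose and the 5 that fell most for each male diet, those called for all 3 diets, between restricted diets or in an interaction, the most abundant of each subfamily, and a list by role; members outside these (Kcnab3, Kcnb2, Kcnc4, Kcne2, Kcnh1, Kcnj2, Kcnj11, Kcnk6, Kcnk12, Kcnk15, Kcnn4, Kcnq1 and the antisense RNAs) were named after their values were seen. Alternatives were RLE size factors, DESeq2 1.42.0, limma 3.58.1 with voom, other filters on low counts, fits of only the 2 groups compared, the score as a covariate, and leaving out each library; leaving out libraries for the interactions and the score was added after seeing the data. In simulated male LeuR data on 21426 genes, of which 200 were changed, 83% of those changed by 1.5 log2 units and 87% of those changed by 2 were recovered. Changed genes were drawn only from better counted ones, genes varied independently and, apart from the change, every library had the same expected profile. The real libraries also differed along the hindbrain score, so these shares do not carry over to them. The study counts its transcriptome samples as mice, but the labels tie no library to an animal, and p-values measure the spread between these libraries. Total counts of 10672599 to 25722333 per library set the precision of low genes. 10 male libraries were not analysed here, and a few genes are counted but not reported by name.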

Additional observations from a re-analysis of the deposited data

Results flagged for a closer look

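In 5 of 102 groups of 4 to 6 libraries, among 17 genes, a single library stood apart from the others of its group, and chance sets apart about 1 in 20 groups. Female Control 30, which has the highest hindbrain score of the female Controls (-0.08), was the highest of 6 for Kcnc1 at 770 CPM (next 392), for Kcng4 at 119 CPM (next 28.2) and for Kcnj12 at 66.7 CPM (next 31.4). Male ValR 12 was the highest of 4 for Kcnj4 at 1.02 CPM (next 0.472), which rests on few reads, with counts of 16 against 8, 6 and 7. Male Control 4, which has the highest score of the male Controls (-4.35), was the lowest of 4 for Kcnq5 at 45.2 CPM (next 123). The part of brain region in these values was not tested.

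For ValR the change differed between males and females by the interaction test in 15 members, of which 13 are given. The male minus female difference in log2 fold change was -7.01 for Kcnh3, -6.91 for Kcnj4, -5.72 for Kcnv1, -5.10 for Kcnf1, -4.94 for Kcnh4 and -3.98 for Kcnip2. It was -3.06 for Kcnq5, -2.79 for Kcnt2, -2.47 for Kcns1, -2.39 for Kcnk4, -2.34 for Kcnh7, -1.97 for Kcnc2 and 1.04 for Kcnh2. Adjusted p-values ran from 0.00803 to 0.0480 (edgeR).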

How the results depend on the processing

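The diet of the males and the hindbrain score cannot be told apart, 10 male libraries were not analysed, and groups held 3 to 6 libraries. RLE size factors, other filters on low counts, DESeq2 and limma voom kept the counts of members called against Control in males within 1.5 times, and 0 members were called in females under each alternative run. Calls lost with limma voom included the IleR calls of Kcng4 and Kcnj6 and the LeuR call of Kcnh4, and calls lost with no filter on low counts were those of Kcnk6 (LeuR) and Kcnn1 (ValR). No paired analysis was possible because no library number occurs in more than 1 group.

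With the hindbrain score as a covariate, 0 members were called for IleR, LeuR, ValR or the ValR interaction. Under that covariate the IleR change turned for Kcnf1 (0.19), Kcng4 (-2.31), Kcnh1 (0.06), Kcnh2 (-0.38), Kcnh3 (1.32), Kcnh4 (1.23), Kcnip2 (1.41), Kcnj4 (0.63), Kcnj6 (0.22), Kcnj9 (0.25), Kcnk2 (0.92), Kcns2 (0.73), Kcnt2 (0.11) and Kcnv1 (0.06). The LeuR change turned for Kcnh3 (1.27), Kcnh4 (0.68), Kcnip2 (0.84), Kcnj10 (-0.11), Kcnj4 (0.85), Kcns2 (0.47) and Kcnv1 (0.04). The ValR change turned for Kcng4 (-2.59), Kcnh2 (-0.32), Kcnh3 (0.33), Kcnh4 (1.59), Kcnip2 (1.31), Kcnj10 (-0.69), Kcnj16 (-0.26), Kcnj6 (0.41), Kcnj9 (0.58), Kcnk2 (0.96), Kcnn3 (0.54), Kcns2 (0.96) and Kcnt2 (0.13). The ValR interaction turned for Kcnh4 (0.18), Kcnip2 (0.10), Kcnq5 (0.43) and Kcnt2 (0.15). None of these log2 values was called, and the cause was not tested.

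Fitted with only Control and LeuR, 0 members were called for LeuR. ValR against LeuR gave 21 members with DESeq2 and 4 with limma voom. The interaction gave 18 (IleR), 3 (LeuR) and 23 (ValR) with DESeq2 and 0 for ValR with limma voom. For these DESeq2 and limma voom counts the shares of all genes are not given here.

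Leaving out 1 library at a time, the members called ran from 21 to 40 for IleR, from 6 to 33 for LeuR, from 34 to 44 for ValR, from 0 to 12 for ValR against LeuR, and from 53 to 59 for the female slope. The interaction ran from 0 to 14 (IleR), 0 to 4 (LeuR) and 5 to 25 (ValR). The score difference ran from 8.58 to 9.56 in males and from -0.04, without Control 25, to 1.41 in females. In every such fit, 19 of 33 IleR calls, 6 of 28 LeuR calls, 33 of 40 ValR calls and 5 of 15 ValR interaction calls were kept.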
